A study of Mus musculus with 6 samples.

Results

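The cytosolic ribosome of macrophages was followed here through 82 genes: 31 encode proteins of the small subunit, 43 encode proteins of the large subunit, 3 encode the stalk proteins (Rplp0, Rplp1 and Rplp2) and 5 encode elongation factors (Eef1a1, Eef1b2, Eef1d, Eef1g and Eef2). They were chosen by name and biotype, as protein-coding genes with a ribosomal protein or elongation factor symbol and at least 60 counts summed over 6 libraries, out of 25044 genes in the count table. The rule itself used no difference between groups, although it was set with earlier results of these data known. Of 85 genes that matched by name, 3 fell below the limit: the paralogs Rpl10l, Rpl3l and Rpl39l, with 0, 9 and 19 counts. The members nearest above it were Rpl21 with 162 counts and Rpl13a with 832. The symbols matched did not cover the ribosomal protein genes Rps3a1 and Fau, whose values are given at the end of the account of the subunits.

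The cells were peritoneal macrophages of C57BL/6 wild type mice aged 8 weeks, collected 3 days after thioglycollate broth, an irritant that recruits monocytes to the cavity. Cells that stuck to the plate within 1 h were kept in culture for 24 h. Of the 6 libraries, 3 came from cells given trametinib at 100 nM, which blocks the ERK-activating kinases MEK1 and MEK2, for 2 h before 100 ng/ml of the bacterial lipopolysaccharide LPS for 12 h. The other 3 came from cells given the vehicle DMSO for 2 h before the same LPS. Every culture received LPS, so the data say nothing of the module in resting cells. The sample information names 3 mice and does not say which animal gave which library, so 6 libraries cannot stand for 6 mice and p-values measure the spread between these cultures. In bulk RNA, fewer cells of a type and less RNA per cell cannot be told apart.

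Nearly all ribosomal proteins sit on each ribosome as a single copy around the ribosomal RNAs, and the RNA of their genes is among the most abundant in any growing cell. Elongation factors serve each codon: eEF1A brings the charged tRNA, the eEF1B complex reloads eEF1A with GTP, and eEF2 moves the ribosome on by 1 codon after each bond. Most of these mRNAs begin with a 5′ terminal oligopyrimidine tract (TOP), a C at the first base followed by C and T, through which mTOR signalling sets how much of the mRNA is translated. The ERK pathway acts on the same machinery through kinases that phosphorylate ribosomal protein S6 and initiation factors. Both controls act largely on translation, which counts of RNA do not measure.

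The TOP tract can be read at the annotated starts. The RefSeq promoter table (GRCm38.p6) held 60 of the 82 members, and 13 of them (21.7%) had at least 1 annotated start at which a run of C followed by at least 4 C or T began, against 2.93% of 9031 tested genes and 3.01% of all 27025 genes in that table. The windows below run from 10 bases before the annotated start to 20 bases from it, on the strand of the gene, and capitals mark the run. They are shown for 5 members with a run and for 3 without one whose values are described below.
Rps6, chr4:86857348-86857377, minus strand: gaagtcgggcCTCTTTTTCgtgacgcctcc
Rps18, chr17:33955646-33955675, minus strand: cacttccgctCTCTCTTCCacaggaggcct
Rpl14, chr9:120571507-120571536, plus strand: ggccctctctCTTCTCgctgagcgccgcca
Rpl35a (the start with a run, of 3 annotated), chr16:33056472-33056501, plus strand: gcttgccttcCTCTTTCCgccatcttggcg
Rpl38, chr11:114668570-114668599, plus strand: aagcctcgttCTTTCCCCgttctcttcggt
Eef1a1, chr9:78481705-78481734, minus strand: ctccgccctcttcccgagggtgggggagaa
Rps2, chr17:24720053-24720082, plus strand: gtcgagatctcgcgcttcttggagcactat
Rps24 (1 of 2 annotated starts), chr14:24490668-24490697, plus strand: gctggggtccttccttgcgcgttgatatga

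In Eef1a1 and Rps24 a stretch of C and T lies within the window but does not begin at the annotated base. Missing a start by a few bases is enough to lose a run, so the count describes annotated starts only. Among members, a run of this kind was found in Rpl14, Rpl15, Rpl28, Rpl35, Rpl35a, Rpl38, Rplp2, Rps10, Rps15a, Rps18, Rps21, Rps27 and Rps6. In the 300 bases around the start (250 before and 50 after, both strands), the letters CTTTCC occurred in 53.3% of members and 30.6% of tested genes. The ETS core CCGGAAG occurred in 41.7% of members and 21.4% of tested genes, and the YY1 core AAGATGG in 15% of members and 8.87% of tested genes. None of these 3 motifs contains another, and a match describes letters, not a bound factor.

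Library totals lay between 17453778 and 19648467 counts. As a check of the labels, the ERK target gene Dusp6, which encodes a phosphatase of ERK, had 0, 1 and 1 counts in the trametinib libraries, against 258, 306 and 39 in the vehicle libraries (edgeR adjusted p 0.0149, and 0.0574 to 0.0605 without any 1 trametinib library). Vehicle replicate 3 lay between the groups on the first principal component, at 16.2, with the trametinib libraries at −35.5 to −26.4 and the other vehicle libraries at 39.3 and 38.1. All 7 macrophage markers (Adgre1, Csf1r, Cd68, Lyz2, Itgam, Mertk and Fcgr1) were measured. Of these, Adgre1 and Itgam fell (log2 fold changes −0.91 and −1.16, edgeR adjusted p 0.000502 and 0.0437, the call of Itgam lost without any 1 library but vehicle replicate 3, at up to 0.134, and with no filter on low counts), Mertk rose (1.15, adjusted p 0.000412) and 4 did not pass. The 7, mostly Lyz2, summed to 14007 to 15621 CPM with trametinib and 15140 to 16902 CPM with vehicle. Marker lists of dendritic cells, mast cells, T and NK cells, B cells, neutrophils, eosinophils, mesothelium with fibroblasts and resident peritoneal macrophages each summed to at most 7.90 CPM in any library. Mitochondrially encoded genes held 1.76% of counts in trametinib replicate 2 and 0.717% to 0.871% in the other 5 libraries, and the part of these differences in the results below was not tested.

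The transcripts of the ribosome changed little with trametinib. Of 82 members, 3 (3.66%) passed the test at an adjusted p under 0.05, all of them lower, against 34.3% of all 11286 genes tested with edgeR's quasi-likelihood test. Over all genes tested, 15.8% were higher and 18.4% lower. The 3 were Eef1g, a subunit of the eEF1B complex, Rps2, a protein at the mRNA entry of the small subunit, and Rps18, a protein in the head of the small subunit. No member was higher past the threshold. With the replicate number as a block, 14 members passed, 12 lower and 2 higher, against 42.9% of all genes tested. At an unadjusted p under 0.05 there were 10 members (12.2%), against 45.2% of all genes tested. The groups did not overlap in 20 members (6 higher and 14 lower with trametinib), against 49.3% of all genes tested (23.4% higher and 25.9% lower). The median log2 fold change of the members (trametinib over vehicle) was −0.02, and that of all genes tested was −0.01.

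The members also spanned a narrow range of differences. Their log2 fold changes ran from −0.45 (Rpl35a) to 0.37 (Rps27a), while those of all genes tested ran from −7.98 to 5.13. The median size, without sign, was 0.11 for members and 0.25 for all genes tested. None of the 82 differed by more than 1.5-fold, against 19.4% of all genes tested. The 95% interval of the fold change lay wholly within 1.5-fold in either direction for 75 members and within 2-fold for 77. The intervals that reached past 1.5-fold belonged to Rpl13, Rps16, Rpl39, Rpl21, Rpl35a, Rpl31 and Rps27a. Of the 7529 genes averaging at least 10 CPM, 38.3% passed the test, and their median size was 0.21.

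**Figure D1:**
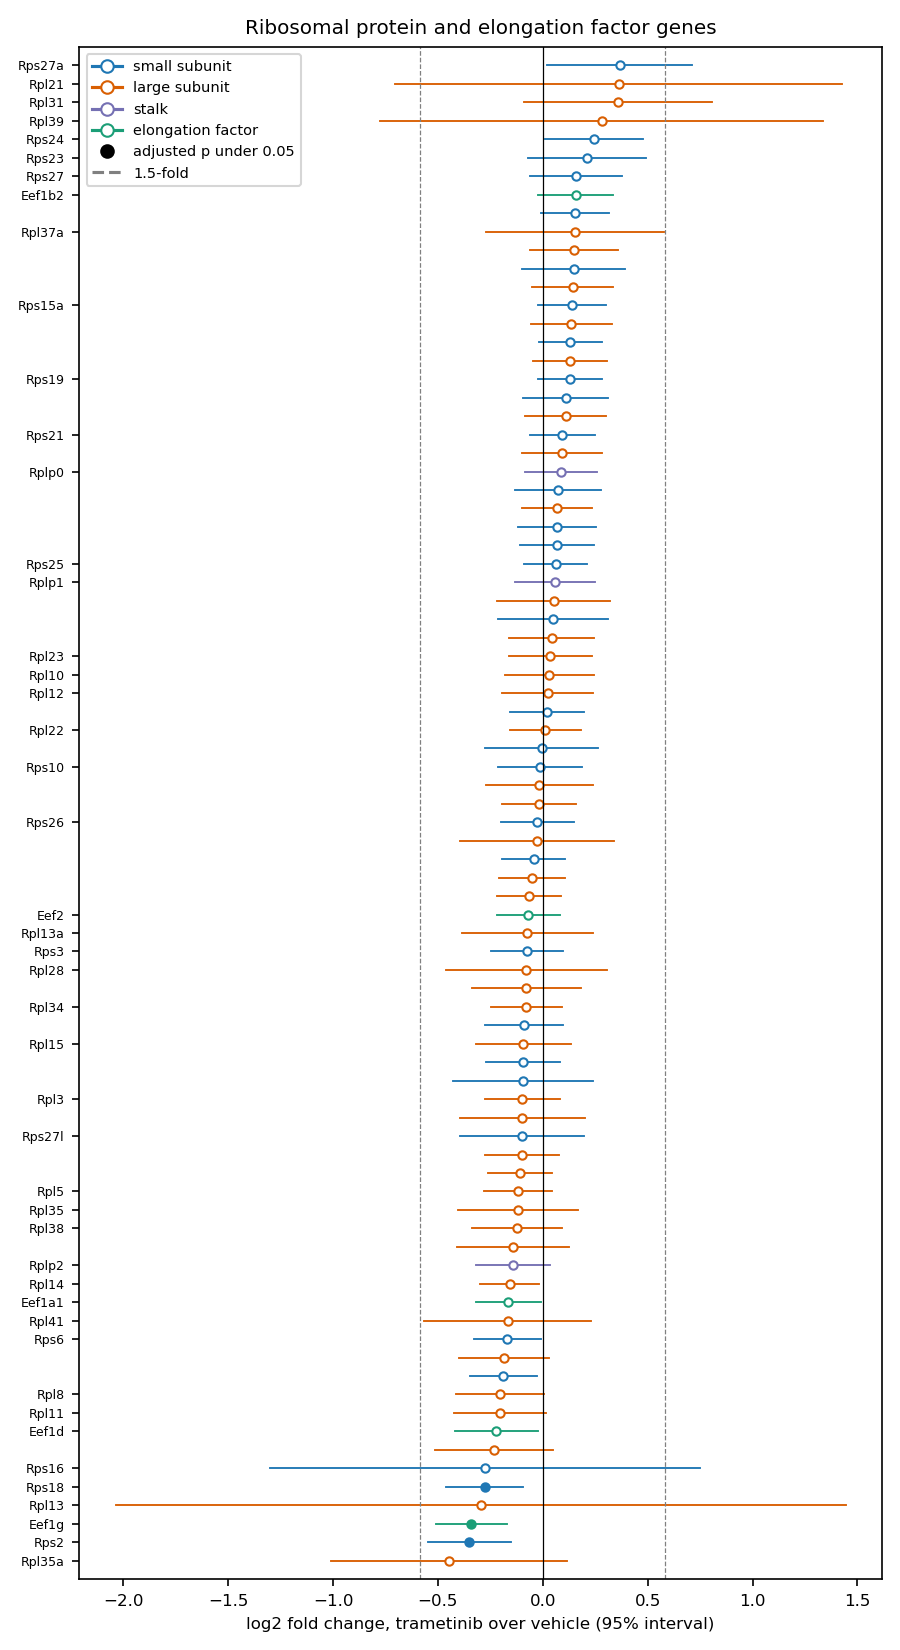
Log2 fold change (trametinib over vehicle, both with LPS, n = 3 each) of the 82 genes with its 95% interval, coloured by subunit, with names for members mentioned in the text, filled circles for an adjusted p under 0.05 and dashed lines at 1.5-fold. The 3 filled circles (Eef1g, Rps2 and Rps18) lie below 0, and 75 intervals stay between the dashed lines.

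As a share of each library, the members held 1.65%, 1.64% and 1.65% of counts with trametinib, against 1.77%, 1.74% and 1.77% with vehicle. On this scale the groups did not overlap. In CPM, counts relative to the library size after scaling by trimmed mean of M values (TMM), the members summed to 17216, 17274 and 16018 with trametinib and 17588, 17292 and 16753 with vehicle, and the groups overlapped. The ratio of the mean sums was 0.978. The difference between the scales comes with TMM factors of 0.948 to 1.03 in the trametinib libraries and 1.01 to 1.06 in the vehicle libraries.

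By class, the sums of the elongation factors stood apart between the groups in CPM. Their 5 genes summed to 4782, 4789 and 4540 CPM with trametinib, against 5305, 5163 and 5049 CPM with vehicle, a ratio of 0.909 with no overlap. Small subunit genes summed to 5396, 5255 and 4862 CPM with trametinib and 5150.1, 5067 and 4841 CPM with vehicle, a ratio of 1.03. Large subunit genes summed to 5621, 5818 and 5329 CPM with trametinib and 5733, 5768 and 5575 CPM with vehicle, a ratio of 0.982, and both pairs overlapped. Without Eef1a1 and Eef2, the remaining members had a ratio of 1.01 in CPM. As a share of each library, more sets were apart. Large subunit genes held 0.539%, 0.551% and 0.548% with trametinib, against 0.576%, 0.580% and 0.588% with vehicle. The members without Eef1a1 and Eef2 held 1.23%, 1.22% and 1.22% with trametinib, against 1.27%, 1.26% and 1.28% with vehicle. The elongation factors were apart on that scale too, while small subunit and stalk genes overlapped. These sums are descriptions and were not tested.

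Among the small subunit genes, 2 of 31 fell and none rose, against 18.4% lower and 15.8% higher of all genes tested. Their median log2 fold change was 0.05. With the block, 4 fell and 2 rose, against 42.9% of all genes tested called in either direction. Rps2 had 36.9, 33.5 and 35.8 CPM in the trametinib libraries, against 45.04, 49.4 and 40.9 CPM in the vehicle libraries. All 3 trametinib values lay below all 3 vehicle values, and the fold was 0.784 (95% interval 0.684 to 0.8997, log2 fold change −0.35, SE 0.0874, adjusted p 0.0145). Without trametinib replicate 2 the adjusted p was 0.0544, and without vehicle replicate 2 it was 0.0601. Rps2 (mm10 chromosome 17, 24718116 to 24721929, plus strand) has 26 annotated pseudogene copies and overlaps an exon of the noncoding gene Snhg9 on the opposite strand, which had at most 0.0591 CPM in any library.

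Rps18 had 114, 123 and 112 CPM in the trametinib libraries, against 141, 152 and 129 CPM in the vehicle libraries. The groups did not overlap, with a fold of 0.825 (95% interval 0.727 to 0.936, log2 fold change −0.28, SE 0.0806, adjusted p 0.0274). The call did not survive the loss of trametinib replicate 1 (adjusted p 0.107), trametinib replicate 3 (0.0708), vehicle replicate 1 (0.0806) or vehicle replicate 2 (0.107). Rps18 (mm10 chromosome 17, 33951999 to 33956001, minus strand) shares exonic bases with Vps52 on the opposite strand, whose log2 fold change was 0.02 (adjusted p 0.896).

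Rps6, the ribosomal protein phosphorylated by S6 kinases and by the ERK-activated RSK kinases, had 160.2, 163 and 149.8 CPM in the trametinib libraries, against 175, 180.0 and 177 CPM in the vehicle libraries. Its groups did not overlap, but it missed the threshold (fold 0.890, 95% interval 0.797 to 0.994, adjusted p 0.0949, and 0.0458 with the replicate number as a block). Rps3, which lies at the mRNA entry and is also known as a DNA repair protein and a partner of NF-kappaB, had 315, 311 and 294 CPM with trametinib and 328, 337 and 304 CPM with vehicle (adjusted p 0.482). The interval of its fold, 0.842 to 1.07, leaves no room for a change of 1.5-fold.

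Several small subunit genes leaned the other way without passing. Rps24, mutated in Diamond-Blackfan anaemia, an inherited failure of red cell production, had 371, 319 and 287 CPM in the trametinib libraries, against 291, 270.4 and 263 CPM in the vehicle libraries. The groups overlapped narrowly, and its log2 fold change was 0.25 (SE 0.103, adjusted p 0.0975), with an adjusted p of 0.0192 with the block and 0.0321 without trametinib replicate 3. Rps23, which reaches into the decoding centre, had 214, 189.6 and 164 CPM with trametinib and 187, 159.9 and 143 CPM with vehicle. Each trametinib library of Rps23 lay above the vehicle library of its number, although the groups overlapped (adjusted p 0.223, and 0.0178 with the block).

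Rps19, the first gene linked to Diamond-Blackfan anaemia, had 110.3, 106 and 103 CPM with trametinib and 103, 97.5 and 91.6 CPM with vehicle (log2 fold change 0.13, adjusted p 0.165). Its groups did not overlap, by a margin under 1 CPM, and the upper 95% bound of the fold was 1.21.

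Rps27a, which encodes a ribosomal protein fused to ubiquitin, had the highest log2 fold change of the module. It had 119, 135 and 113 CPM in the trametinib libraries, against 91.0, 77.8 and 117 CPM in the vehicle libraries, and vehicle replicate 3 lay among the trametinib values. Its log2 fold change was 0.37 (SE 0.147, adjusted p 0.0945), 0.54 without vehicle replicate 3 (adjusted p 0.00164), and DESeq2 called it at an adjusted p of 0.0466. Rps16, whose tail reaches the tRNA in the ribosome, was set by 1 library: 259, 87.1 and 230.5 CPM in the trametinib libraries, against 235, 239.7 and 223 CPM in the vehicle libraries. Without trametinib replicate 2 its log2 fold change was 0.08 in place of −0.28.

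None of the 43 large subunit genes passed the test, against 34.3% of all genes tested, and their median log2 fold change was −0.06. With the block 5 were lower, against 22.4% of all genes tested. Rpl35a, also a Diamond-Blackfan anaemia gene, had the lowest log2 fold change of all members. It had 19.8, 24.7 and 15.8 CPM in the trametinib libraries, against 21.7, 36.1 and 24.5 CPM in the vehicle libraries. Each trametinib library lay below the vehicle library of its number, although the groups overlapped (log2 fold change −0.45, SE 0.235, adjusted p 0.188, and 0.0148 with the replicate block). Rpl14, another large subunit protein, had 69.5, 66.5 and 66.8 CPM with trametinib and 79.0, 74.1 and 73.2 CPM with vehicle, with no overlap (log2 fold change −0.16, adjusted p 0.0794, 0.0494 with the block and 0.0486 without vehicle replicate 3).

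Rpl31, at the rim of the tunnel through which the new protein leaves, stood on vehicle replicate 3. It had 106, 132 and 119.8 CPM in the trametinib libraries, against 77.3, 80.02 and 121 CPM in the vehicle libraries. Its log2 fold change was 0.36 (SE 0.187, adjusted p 0.185) with all libraries and 0.60 (adjusted p 0.000578) without vehicle replicate 3. Exons of Rpl31 overlap Tbc1d8 on the opposite strand, which had 28.6, 26.0 and 32.9 CPM with trametinib, against 12.9, 14.3 and 21.3 CPM with vehicle (log2 fold change 0.85, adjusted p 0.0132). The part of Tbc1d8 reads in the Rpl31 counts was not tested, since the strand setting of the counting is not given in the sources used here.

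Rpl13, Rpl39 and Rpl21 varied more between replicates than between groups. Rpl13, a large subunit protein, had 159, 56.9 and 129 CPM in the trametinib libraries, against 188, 184 and 51.5 CPM in the vehicle libraries, so 1 library of each group held less than the others. Rpl39, which lines the exit tunnel, had 44.0, 102 and 90.2 CPM with trametinib and 50.4, 91.8 and 52.7 CPM with vehicle. Rpl21, the member with the fewest counts, had 12, 49 and 30 counts with trametinib and 30, 26 and 15 counts with vehicle. Their 95% intervals of the fold were 0.244 to 2.72, 0.584 to 2.53 and 0.613 to 2.69, so the intervals include a 2-fold change in both directions for Rpl13, and upward for Rpl39 and Rpl21.

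Counted over all members, the libraries with most genes more than 1.5-fold from the mean of the other 2 libraries of their group were trametinib replicates 1 and 2, with 4 genes each (Rpl13, Rpl21, Rpl39 and Rps16 in both). There were 3 such genes in vehicle replicate 2, 3 in vehicle replicate 3, and 1 each in trametinib replicate 3 (Rpl37a) and vehicle replicate 1 (Rpl13). By this measure a library can also be counted because another of its group lies apart. Rps16 counts for trametinib replicate 1 (259 CPM) beside 87.1 CPM in replicate 2 and 230.5 CPM in replicate 3. The same few genes recur, while the median member differed 1.23-fold between its highest and its lowest library, against 1.45-fold for the median of all genes tested. Rps25 differed least, 1.08-fold, and Rpl21 most, 3.71-fold.

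**Figure D2:**
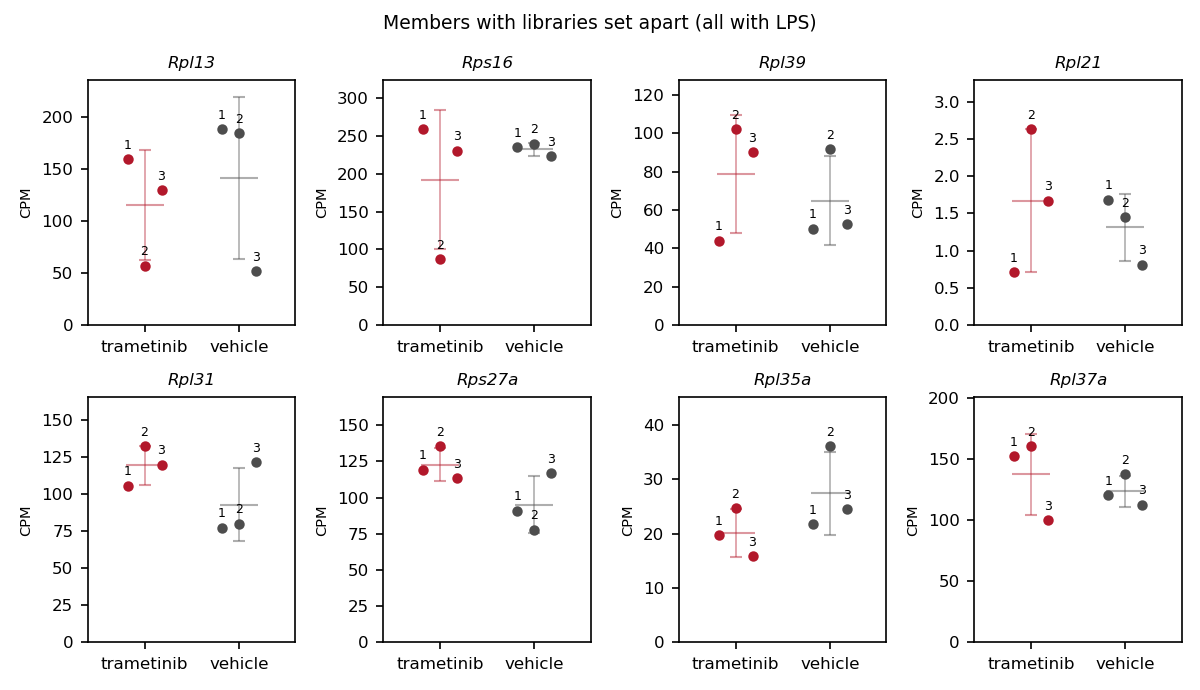
CPM per library (points, numbered by replicate) with mean and SD for 8 members with 1 or more libraries set apart, trametinib left and vehicle right, each panel on its own linear axis from 0. Trametinib replicate 2 is low in Rpl13 and Rps16, and vehicle replicate 3 is low in Rpl13 and high in Rpl31 and Rps27a.

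Rpl38 and Rpl13a are known for roles beyond peptide synthesis. Rpl38, needed in mouse embryos for translation of a set of Hox mRNAs, had 37.8, 41.6 and 33.2 CPM with trametinib and 41.4, 42.7 and 38.5 CPM with vehicle (log2 fold change −0.12, adjusted p 0.350). Rpl13a, known from human monocytic cells to leave the ribosome after interferon gamma and silence inflammatory mRNAs, had 7.21, 6.99 and 8.35 CPM with trametinib and 6.79, 8.04 and 8.92 CPM with vehicle (log2 fold change −0.07, adjusted p 0.708). Both pairs of groups overlapped, and the interval of the fold was 0.793 to 1.07 for Rpl38 and 0.765 to 1.18 for Rpl13a.

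Sorted by place in the ribosome, 1 gene at most passed in any group of proteins. Of all genes tested, 34.3% passed, and 42.9% with the block. Of the 5S RNP proteins and binders of the p53 regulator MDM2 (Rpl5, Rpl11 and Rpl23), 0 of 3 passed (Rpl11 with the block, adjusted p 0.0354), with a median log2 fold change of −0.12. At the peptide exit site 0 of 8 passed (median 0.09), and at the peptidyl transferase centre (Rpl3, Rpl8 and Rpl10) 0 of 3 passed (Rpl8 with the block, adjusted p 0.0371, median −0.10). Around the mRNA entry, exit and decoding region of the small subunit 1 of 8 passed, Rps2, which was lower (median −0.00), and with the block 1 was lower and 1 higher. Of 19 Diamond-Blackfan anaemia genes, 0 passed (median −0.02), and with the block 2 were lower and 1 higher.

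The stalk proteins bind the elongation factors and switch on their GTPase activity. Rplp0, which anchors the stalk, had 739, 737 and 671 CPM in the trametinib libraries, against 703, 662 and 654 CPM in the vehicle libraries (log2 fold change 0.09, adjusted p 0.400). Rplp1 had 500.4, 516 and 451 CPM with trametinib and 502, 451 and 458 CPM with vehicle (log2 fold change 0.06, adjusted p 0.634). In both genes the groups overlapped. Rplp2 had 178, 159 and 165 CPM with trametinib and 194, 181 and 178 CPM with vehicle, every trametinib library below every vehicle library by a margin under 1 CPM (log2 fold change −0.14, adjusted p 0.187). Together with the stalk base gene Rpl12, 0 of 4 genes passed, with a median log2 fold change of 0.04.

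Of the ribosomal protein genes outside the name rule, neither Rps3a1 nor Fau passed. Rps3a1 had a log2 fold change of −0.00 (95% interval −0.22 to 0.21, adjusted p 0.989), and Fau, which fuses a ubiquitin-like protein to a ribosomal protein, of −0.12 (−0.35 to 0.11, adjusted p 0.397).

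Of the elongation factors, 1 of 5 fell, against 18.4% of all genes tested. In 4 of 5 every trametinib library lay below every vehicle library, against 25.9% of all genes tested. Eef1g passed the test, 3 of 5 were lower with the block (22.4% of all genes tested), and the median log2 fold change of the 5 was −0.16. Eef1g, the scaffold of the eEF1B complex, had 128, 134 and 129 CPM in the trametinib libraries, against 165, 176 and 154 CPM in the vehicle libraries. The means were 130.4 ± 2.90 CPM with trametinib and 165 ± 11.2 CPM with vehicle (SD, n = 3 each), with a fold of 0.790 (95% interval 0.703 to 0.888, log2 fold change −0.34, SE 0.0743, adjusted p 0.00815). It was called under every alternative run, with adjusted p-values of 0.00136 to 0.0441. The gene lies on mm10 chromosome 19, 8967041 to 8978479, plus strand, and has 2 annotated pseudogene copies.

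Eef1a1, which carries aminoacyl-tRNA and had the highest counts of the module, had 3309, 3346 and 3112 CPM in the trametinib libraries, against 3761, 3646 and 3543 CPM in the vehicle libraries. The groups were apart, yet the difference of −0.16 on the log2 scale (SE 0.0682) had an adjusted p of 0.0921, and 0.0251 with the replicate block. Eef1d, an exchange factor that reloads eEF1A with GTP, had 33.6, 29.6 and 34.1 CPM with trametinib and 40.7, 35.6 and 37.1 CPM with vehicle (log2 fold change −0.22, adjusted p 0.0794, and 0.0333 with the block). It shares exonic bases with Naprt on the same strand, a gene that rose (3.601 to 4.02 CPM with trametinib and 1.91 to 3.19 CPM with vehicle, adjusted p 0.0427).

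Eef1b2, the other exchange factor of the complex, ran the opposite way with 198, 207 and 184 CPM in the trametinib libraries and 170.1, 173 and 185 CPM in the vehicle libraries. Vehicle replicate 3 overlapped the trametinib values, and the log2 fold change of 0.16 did not pass (adjusted p 0.155). Eef2, the translocase, had 1114, 1072 and 1081 CPM with trametinib and 1167, 1132 and 1129.7 CPM with vehicle, apart by little (fold 0.952, 95% interval 0.858 to 1.06, adjusted p 0.445). The subunits of eEF1B thus had folds on both sides of 1, 0.790 for Eef1g, 0.858 for Eef1d and 1.12 for Eef1b2, and the differences between these folds were not tested.

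**Figure D3:**
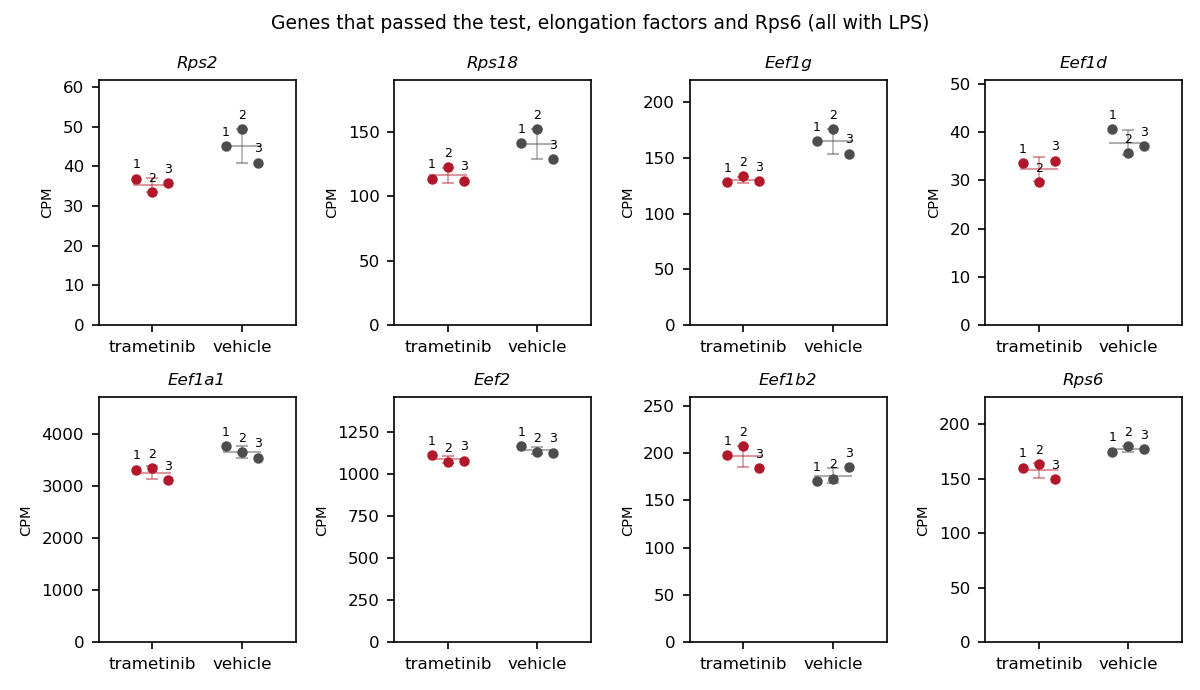
CPM per library (points, numbered by replicate) with mean and SD for the 3 genes that passed the test, the other elongation factors and Rps6, trametinib left and vehicle right, each panel on its own linear axis from 0. Trametinib points lie below all vehicle points in every panel but Eef1b2.

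The number of members called depended on the design and on 1 library. With the replicate number as a block, 14 members (17.1%) passed, against 42.9% of all genes tested (22.4% lower). Of these, 12 were lower, among them Eef1a1, Eef1d, Eef1g, Rpl11, Rpl14, Rpl35a, Rpl41, Rpl8, Rps18, Rps2 and Rps6, and Rps23 and Rps24 were higher. Without vehicle replicate 3, 11 members (13.4%) passed, against 40.8% of all genes tested, 8 lower and 3 higher (Rpl31, Rps27 and Rps27a). Without trametinib replicates 1, 2 and 3 the members called were 2, 2 and 4, against 21.2%, 23.1% and 31.8% of all genes tested. Without vehicle replicate 1 they were 2, against 22.2%, and without vehicle replicate 2 the only one was Eef1g, against 23.0%. DESeq2 called 4, against 27.9%, and edgeR with no filter on low counts 3, against 22.1%. In each of these fits the share of members was below that of all genes tested, and the median log2 fold change of the members stayed between −0.04 and 0.03.

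Per kilobase of merged exons, the scale on which genes can be compared with each other, the levels of the members spanned 3154-fold, from 0.439 CPM per kb (Rpl21) to 1385 CPM per kb (Eef1a1), averaged over both groups, with a median of 61.6. The 4 highest were Eef1a1 (1306 CPM per kb with trametinib and 1464 with vehicle), Rplp1 (980.1 with trametinib and 942 with vehicle), Rplp0 (431 with trametinib and 406 with vehicle) and Eef2 (328 with trametinib and 344 with vehicle). The products of Rplp1, Rplp0 and the 2 factors meet on the ribosome at the stalk. Per kilobase of coding sequence the span was 801-fold.

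Processed pseudogenes, copies of mRNAs pasted back into the genome, are numerous for these genes. Annotated pseudogene transcripts with at least 95% identity over at least 80% of the coding sequence were found for 74 of 82 members, 564 in all, with a median of 5, at least 10 for 16 members and 56 for Rpl21. The 16 members with at least 10 copies had a median of 142 CPM per coding kb, the 58 with 1 to 9 copies 347, and the 8 with no copy 354. Spearman's rho between copies and level was −0.296 per coding length and −0.281 per exon length across the 82 genes, which share libraries and sequence families, so it is a description. How reads that fit several places were counted is not given in the sources used here, and the part of lost reads in the low levels was not tested. Exons of 18 members overlap an exon of another gene on the opposite strand. Their counts are uncertain because the strand setting is not given either. Exons of Rpl13a, Rpl24, Rpl19, Rps10 and Eef1d overlap another gene on the same strand, and the part of such overlaps in their counts was not tested. Of 300 pseudogenes named after ribosomal protein or elongation factor genes in GENCODE, 10 were in the count table.

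**Figure D4:**
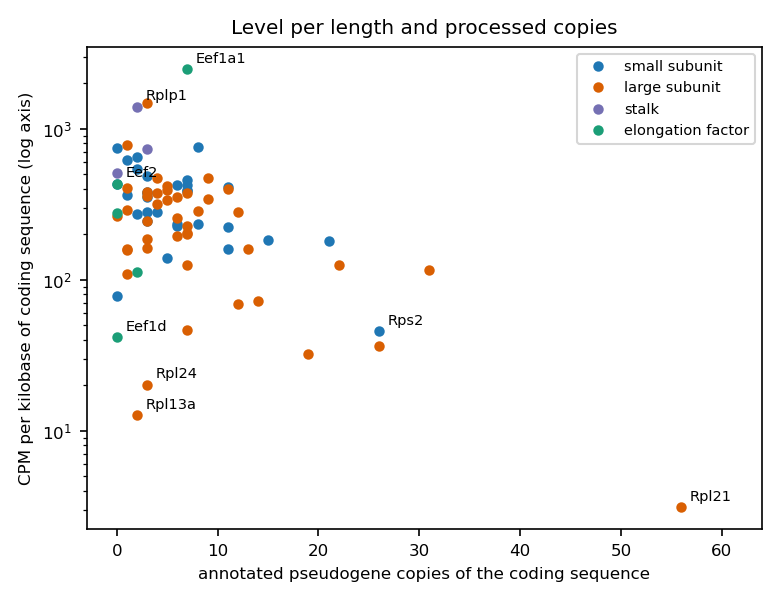
Level of each of the 82 members, averaged over the trametinib and vehicle libraries, in CPM per kilobase of coding sequence (log axis) against the number of annotated pseudogene copies of its coding sequence (linear axis), coloured by subunit. Rpl21 has the most copies (56) and the lowest level, while members with few copies spread over the whole range of levels above it.

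Among those 10, Rpl34-ps1 had 245 counts in trametinib replicate 1, with 5 and 1 in the other trametinib libraries, against 4, 4 and 1 in the vehicle libraries. Rps15a-ps5 had 6, 8 and 2 counts with trametinib and 5, 6 and 53 counts with vehicle. Single libraries carried these pseudogene counts, and adding all such counts to the parent genes left the same 3 members past the threshold. No member with at least 10 copies other than Rps2 passed the test.

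Paralogs of ribosomal proteins, which can replace the usual protein in some cells, did not pass either. The most abundant, Rpl7l1, had 61.4, 70.5 and 68.9 CPM in the trametinib libraries, against 75.8, 78.8 and 73.9 CPM in the vehicle libraries, without overlap (log2 fold change −0.19, adjusted p 0.0744, 0.0445 with the block and 0.0488 without vehicle replicate 3). Rps27l, a p53 target gene in human cells and also a member by name, had 17.0, 21.3 and 18.2 CPM with trametinib and 17.1, 23.4 and 20.1 CPM with vehicle (adjusted p 0.594). Rpl22l1, which in mouse cells rises when Rpl22 is lost, had 6.80, 7.42 and 5.18 CPM with trametinib and 8.30, 5.52 and 5.30 CPM with vehicle (adjusted p 0.948). Both of these overlapped between groups.

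The low paralogs carried little information. Rpl36al had 1.597, 1.83 and 1.78 CPM with trametinib and 3.25, 2.12 and 2.11 CPM with vehicle (log2 fold change −0.52, adjusted p 0.120). Rps27rt had 1.597, 1.02 and 1.23 CPM with trametinib and 0.673, 0.725 and 0.865 CPM with vehicle (log2 fold change 0.75, adjusted p 0.0731). Rps4l, annotated as a transcribed pseudogene, had 3.25, 3.87 and 4.01 CPM with trametinib and 3.08, 4.91 and 4.54 CPM with vehicle (adjusted p 0.542). All 3 are close in sequence to abundant members, so their counts are uncertain.

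Differences were also listed by start-site features. The 13 members with a pyrimidine run at an annotated start had a median log2 fold change of −0.12 (1 lower, Rps18), and the 47 found without one had −0.03 (1 lower, Rps2). The 25 members with CCGGAAG near the start had a median of −0.08 (2 lower, Rps2 and Rps18) and the 35 without it −0.02 (0 passed). The 31 members that hold a snoRNA gene within their span had a median of −0.05 (1 lower) and the 51 without one −0.02 (2 lower). Of all genes tested, 18.4% were lower and 34.3% passed in either direction, larger shares than in any of these groups. The differences between these groups, in medians or in counts, were not tested.

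Genes whose mRNAs are known for TOP tracts outside the module had similarly small differences. Of 16, 2 passed (12.5%), against 34.3% of all genes tested (15.8% higher and 18.4% lower). Eif2s3x, a subunit of the initiation factor that brings the first tRNA, fell, and Eif3f, a subunit of the scaffold factor eIF3, rose. The median log2 fold change of the 16 was −0.04. Eif2s3x had 88.5, 91.0 and 89.7 CPM in the trametinib libraries, against 109, 107 and 107 CPM in the vehicle libraries (log2 fold change −0.26, SE 0.0558, adjusted p 0.00717). Eif3f had 148, 139 and 135 CPM with trametinib and 124, 116 and 124 CPM with vehicle (log2 fold change 0.22, adjusted p 0.0398, and 0.0847 to 0.156 without trametinib replicate 1 or 2 or vehicle replicate 1 or 2, and 0.0651 with no filter on low counts). Pabpc1, the poly(A)-binding protein, had 918, 889 and 869 CPM with trametinib and 759, 827 and 774 CPM with vehicle, without overlap (adjusted p 0.0799, and 0.0350 with the block).

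Of 7 tested chaperones that each escort 1 or a few ribosomal proteins, 4 fell (57.1%, against 18.4% of all genes tested that were lower) and none rose, with a median log2 fold change of −0.42, beside −0.02 for the members and −0.01 for all genes tested. Ltv1, which holds the unfinished small subunit, had 11.4, 11.8 and 13.0 CPM in the trametinib libraries, against 21.3, 22.9 and 21.5 CPM in the vehicle libraries (log2 fold change −0.86, SE 0.0882, adjusted p 0.000379). Grwd1, the chaperone of Rpl3, had 2.31, 2.85 and 2.95 CPM with trametinib and 7.80, 7.98 and 5.67 CPM with vehicle (log2 fold change −1.40, adjusted p 0.000847). Tsr2, the chaperone of Rps26, had 3.55, 4.78 and 5.46 CPM with trametinib and 8.36, 7.92 and 7.83 CPM with vehicle (log2 fold change −0.80, adjusted p 0.00539).

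Rpl3, Rps26 and Rpl5, clients of chaperones that fell, did not pass the test. Rpl3 had a log2 fold change of −0.10 (95% interval of the fold 0.827 to 1.06) and Rps26 of −0.03 (0.871 to 1.11), neither past the threshold, with adjusted p-values of 0.371 and 0.818. The fourth chaperone that fell, Heatr3, serves Rpl5 (log2 fold change −0.42, adjusted p 0.0114), while Rpl5 itself had −0.12 (95% interval of the fold 0.823 to 1.03, adjusted p 0.234). The difference between a chaperone and its client was not tested. Pdcd2, the chaperone of Rps2, is listed at 0 in every library.

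Of 23 tested modifiers and relatives of the elongation factors, 13 fell (56.5%, against 18.4% of all genes tested that were lower) and none rose, with a median log2 fold change of −0.36. With the block 14 fell and 1 rose. Eef1e1, an eEF1-like subunit of the complex of tRNA synthetases, had 4.91, 4.89 and 5.79 CPM in the trametinib libraries, against 13.6, 14.6 and 10.8 CPM in the vehicle libraries (log2 fold change −1.32, SE 0.144, adjusted p 0.000459). Abce1, the ATPase that splits ribosomes after termination, had 34.5, 39.3 and 47.1 CPM with trametinib and 71.3, 78.1 and 72.5 CPM with vehicle (log2 fold change −0.87, adjusted p 0.000702). Dph6, an enzyme of diphthamide, the modified histidine of eEF2, had 8.28, 8.33 and 9.19 CPM with trametinib and 15.2, 12.7 and 13.3 CPM with vehicle (log2 fold change −0.68, adjusted p 0.00206). In all 3 the groups were well apart. Dph1, Dph2 and Dph5 of the same pathway also fell, while Dph3, Dph7 and Dnajc24 did not pass (log2 fold changes −0.10, −0.07 and −0.17). The count of this list was 6 without vehicle replicate 1 or vehicle replicate 2 (against 22.2% and 23.0% of all genes tested), 7 without trametinib replicate 1 (against 21.2%) and 8 without trametinib replicate 2 (against 23.1%).

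Among 13 genes that control TOP mRNAs or phosphorylate Rps6, 3 fell (23.1%) and none rose, with a median of −0.15. The share is near the 18.4% of all genes tested that were lower, and below the 34.3% that passed in either direction. Eif4ebp1, the mTOR-controlled repressor of cap-dependent initiation, had 19.6, 21.7 and 20.8 CPM with trametinib and 34.6, 33.1 and 24.1 CPM with vehicle (log2 fold change −0.56, adjusted p 0.0118). Tsc1, an inhibitor of mTOR signalling, had 27.2, 29.4 and 31.9 CPM with trametinib and 39.3, 35.2 and 36.9 CPM with vehicle (log2 fold change −0.33, adjusted p 0.0167). Rps6ka2, which encodes an RSK kinase activated by ERK, had 25.0, 25.4 and 28.5 CPM with trametinib and 34.9, 28.6 and 40.8 CPM with vehicle (log2 fold change −0.40, adjusted p 0.0378). The calls depend on single libraries. Without trametinib replicate 1, 0 genes of the list passed, against 21.2% of all genes tested. The count was 1 without trametinib replicate 2 (against 23.1%) or vehicle replicate 1 (against 22.2%). It was 6 without trametinib replicate 3 (against 31.8%). Larp1, the protein that binds the TOP tract, had 499, 496 and 465 CPM with trametinib and 531, 534 and 494 CPM with vehicle (adjusted p 0.348).

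Of 11 genes of ribosome storage and quality control, 4 fell (36.4%, against 18.4% of all genes tested lower and 34.3% called in either direction) and none rose, with a median of −0.16. Usp10, which removes ubiquitin from small subunit proteins of stalled ribosomes, had 8.46, 7.36 and 10.0 CPM in the trametinib libraries, against 18.96, 20.2 and 18.3 CPM in the vehicle libraries (log2 fold change −1.15, SE 0.121, adjusted p 0.000412). Serbp1, which clamps idle ribosomes, had 98.5, 95.4 and 101 CPM with trametinib and 141, 152 and 137 CPM with vehicle (log2 fold change −0.55, adjusted p 0.000692). G3bp1, the partner of Usp10, had 88.8, 89.2 and 99.1 CPM with trametinib and 112, 116 and 117 CPM with vehicle (log2 fold change −0.31, adjusted p 0.00725). The groups were apart in each, and Ascc2, of the complex that splits collided ribosomes, was the fourth to fall (log2 fold change −0.25, adjusted p 0.0480). The list held 4 calls without vehicle replicate 3 and 3 without any other single library. Of all genes tested, 40.8% passed without vehicle replicate 3 and 21.2% to 31.8% without another library.

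**Figure D5:**
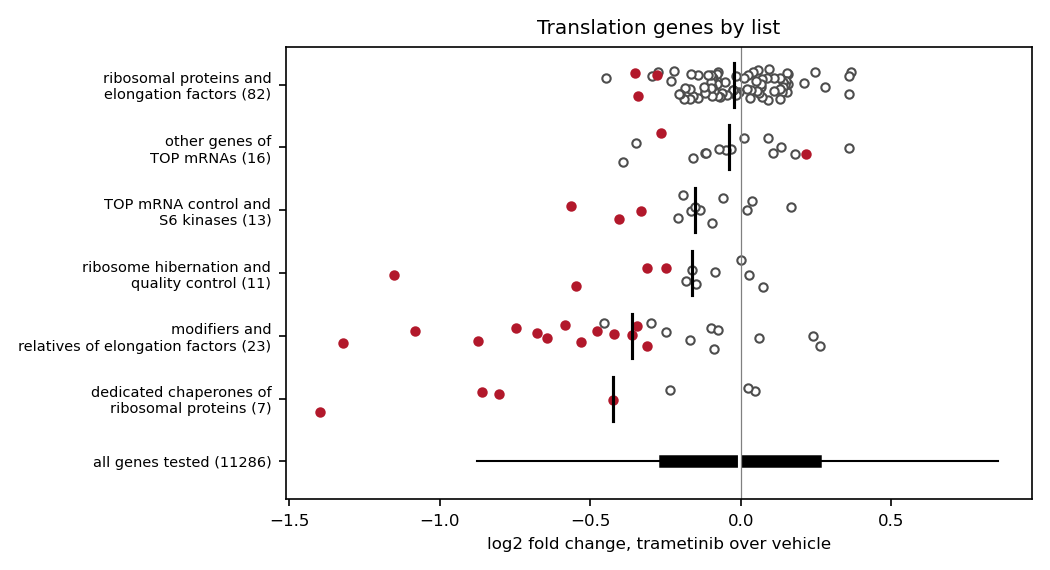
Log2 fold change (trametinib over vehicle) of the 82 members and of the tested genes of 5 other translation lists, with filled points for an adjusted p under 0.05 and a vertical line at each median, and for all 11286 genes tested a bar over the percentiles 25 to 75 and a line over the percentiles 5 to 95. The members and the other TOP mRNA genes gather around 0, while the medians of the modifiers (−0.36) and the chaperones (−0.42) lie lower.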

How the data were processed

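RNA was sequenced after removal of ribosomal RNA in 6 libraries, 3 with trametinib and LPS and 3 with vehicle and LPS. The authors deposited a table of counts, whole reads per gene and library, not normalized. The tools per the submitters' processing notes were R 3.6.0, DESeq2 1.24.0, featureCounts 1.6.4 and HISAT2 2.1.0, with build mm10. Not given in the sources used here were the annotation, the strand setting and the handling of reads with several matches. They bear on this module because most members have processed pseudogenes and some overlap other genes.

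From 25354 entries, 310 identical repeats were dropped, leaving 25044 genes, of which 25033 matched GENCODE mouse release M21. Low counts were removed with filterByExpr, which all 82 members passed, libraries were scaled with TMM, and groups were compared with edgeR 4.0.16 (robust quasi-likelihood fit, group as the only term, Benjamini-Hochberg over 11286 genes). The SE was taken as the absolute log2 fold change over the root of F, and 95% intervals use the same test. CPM are counts relative to the TMM-scaled library size. Intervals do not cover how reads were assigned.

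The members and all gene lists were chosen with earlier results of these data known. Genes described with values were taken by rule: the 6 lowest and 6 highest log2 fold changes, the 4 smallest p in each direction not among these, the 5 elongation factors, the 4 highest levels per length, tested paralogs, Rps6, Rps3, Rpl13a, Rpl38 and up to 3 genes of smallest p from each other list. Others named were chosen after their values were seen. Some genes that this rule takes are not reported here.

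Across all genes, deviations from the group means correlated at 0.339, 0.393 and 0.285 between libraries of the same replicate number and at −0.223 to −0.0724 between different numbers. Over the members alone the same-number correlations were 0.153, −0.0773 and −0.246. The numbers were therefore treated as a possible pairing, hinted at by the data while the labels are silent. Blocked values stand beside results whose call they change, or whose count they move over 1.5 times.

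Alternatives were size factors of DESeq2 in edgeR, TMM without the members or without mitochondrial genes and the 10 most abundant, no filter, at least 1 CPM in 3 libraries, DESeq2 1.42.0, limma-voom (limma 3.58.1), the replicate block, named pseudogene counts added to their parents, and each library left out. Level per coding length was added after seeing the data. The procedure was checked on simulated counts, which held fewer changed genes than the data. There edgeR recovered 2 of 47 genes set at 1.2-fold, 31 of 58 at 1.5-fold, 35 of 45 at 2-fold and 47 of 50 at 4-fold. It called 12 of 11086 genes set at no change. In those counts a difference near 1.2-fold was mostly missed. Whether the same share would be missed among the members was not tested. In the data 34.3% of all genes tested passed, and the median SE was 0.0871 for the members, against 0.109 for all genes tested. A member that did not pass is still not shown to be unchanged. Copies were found with BLAST+ 2.17.0. R 4.3.3, Python 3.11.15, pandas 2.3.3, NumPy 2.4.6, SciPy 1.17.1 and matplotlib 3.10.9 were used.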

Additional observations from a re-analysis of the deposited data

How the results depend on the processing

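With the replicate block, 14 members changed, 12 lower and 2 higher. Among the other named genes the pairing changed the calls of Pabpc1 and Rpl7l1, given above, and no other. DESeq2 called 1 member higher. Leaving out 1 library gave 1 to 11 members changed (1 to 8 lower, 0 to 3 higher) and 2428 to 4663 of all genes. For the lists, the ranges were 1 to 4 other TOP mRNA genes (1 with no filter on low counts), 6 to 12 modifiers of elongation factors and 0 to 6 genes of TOP mRNA control. The chaperones (4) and the quality control genes (3 to 4) stayed within 1.5 times. Over all alternatives the log2 fold change took both signs in 23 of the 82 members. Of the members and paralogs described by rule, it reversed, between values that never passed, for Rpl13 (−0.70 to 0.035 over the libraries left out, positive without trametinib replicate 2), Rps16 (−0.55 to 0.078, positive without trametinib replicate 2), Rpl13a (−0.17 to 0.020, positive without vehicle replicate 3), Rps27l (−0.20 to 0.020, positive without vehicle replicate 2), Rpl21 (−0.12 to 0.72, negative without trametinib replicate 2) and Rpl22l1 (−0.096 to 0.26, negative without trametinib replicate 1 or 2 or vehicle replicate 2 or 3). The causes were not tested, beyond the loss of a library. Scaling and low-count filters left the same 3 members past the threshold. Depth is lowest for Rpl21 (162 counts) and Rpl13a (832), and the next member, Rpl24, had 1024 counts in all.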
